A study of Drosophila melanogaster with 2 samples.

Results

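The dpr and DIP genes encode neuronal recognition proteins, and binding of the nuclear protein Dan at these genes was read from chromatin immunoprecipitation with sequencing (ChIP-seq) of Drosophila melanogaster embryos. The members are all protein-coding genes of the Release 6 annotation whose symbol is dpr followed by a number or starts with DIP and a hyphen, except 1 gene that the rule leaves out and that was not analysed here. They number 31 of 13968 protein-coding genes on the 7 chromosome arms, with 21 dpr and 10 DIP genes. Peaks were read inside each gene and up to 5000 bp on either side of it, a stretch called its window below. The members were chosen by symbol and not by any measured value, though with earlier results of these data known. The embryos were whole, 0 to 8 h old, of the strain dan-GFP in both replicates, and expressed a fusion of Dan with eGFP, which was precipitated with an antibody against GFP. They form a single group of 2 biological replicates with no second genotype or stage, so no condition is compared. The labels describe the fusion as an insertion and state neither its promoter nor the cells that carry it, and chromatin of all cells of the embryo, neural or not, was read together.

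Dpr and DIP proteins are cell-surface proteins of the immunoglobulin superfamily. A Dpr on one neuron binds a matching DIP on another, and this code of pairs is known for its part in choosing synaptic partners, neuron survival and the layout of the visual system and neuromuscular junction. The family is named after dpr1, whose loss alters the proboscis extension response to salt. Dan, the product of distal antenna, is known for its parts in antennal identity and in neuroblasts, the stem cells of the central nervous system.

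The files give regions called in the ChIP with a signal, the authors' own value per region against a control. They also give an irreproducible discovery rate (IDR), which is low for a region that ranks high, and about alike, in 2 sets of calls. The conservative list, made from both replicates at an IDR of at most 0.01, holds 1170 peaks, and a second thresholded list holds 1396. Replicate 1 has its own list of 1071 peaks and replicate 2 one of 600. Below the thresholds lie ranked lists of 130105 regions for both replicates, 109692 for replicate 1 and 111665 for replicate 2. On the arms 96.6% of the regions ranked for both replicates had an IDR above 0.1. A ranked region alone is thus a candidate, not a reproducible peak. Read depth is unknown, since no list gives counts. Signals of the replicates are set side by side as values, and levels are compared between replicates by the percentile of a region within its own ranked list on the arms. Correlations of signals between the replicates do not depend on their scale.

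Conservative Dan peaks lay in the windows of a minority of the dpr and DIP genes. Among members of 20 kb or longer they were about as frequent as at all genes of that length. In the second thresholded list 4 of 17 such members had a peak, beside 32.7%. The count was 1 beside 25.4% in replicate 1's own list and 0 beside 15.1% in replicate 2's. A group of 17 genes is small to set against these shares. Of the 10 conservative peaks, 9 had their summit over 500 bp from the member's own start site. The windows of 9 of 31 members held a conservative peak, 5 dpr and 4 DIP genes, whereas 14.8% of all protein-coding genes did. The members are long, with a median of 32.3 kb against 2.16 kb for all genes, and long genes hold a peak more often. Of the 17 members of 20 kb or longer, 5 had a peak, beside 28.5% of all genes of that length. Split further, 3 of 9 members of 20 to 50 kb had one, beside 24.8%, and 2 of 8 members of 50 kb or longer, beside 37.1%. Of the 10 members of 5 to 20 kb, 1 had a peak, beside 17.7%, and of the 4 members under 5 kb, 3 had one, beside 12.8%. The windows together held 10 conservative peaks, 6.64 per Mb, against 7.84 per Mb over the 7 arms. The conservative count of long members thus lies near its background, and the 4 genes under 5 kb are too few to set against theirs.

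Of the members, dpr14 alone had a conservative summit within 500 bp of its own start site, beside 4.26% of all genes, a share near that of the members. In the second thresholded list it was again 1 member, beside 4.74%, in replicate 1 also 1, beside 4.2%, and in replicate 2 it was 0, beside 2.67%. Counted by the nearest start site of any gene, dpr20, DIP-theta and DIP-zeta had a conservative peak, 3 members beside 6.19% of all genes. Summits within 500 bp of any gene's start made up 2 of the 10 peaks, the starts being those of spidey and Dci, while over all conservative peaks on the arms the share was 38.3%.

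The 4 strongest of the 10 peaks stood in the windows of dpr20, dpr14 and DIP-iota, 3 of the 4 members under 5 kb, in AT-rich sequence 122 to 1040 bp from the nearest start site of any gene. Replicate 1 also listed 3 of them by itself, 1 in each window, and the other, the second peak in the window of dpr20, was listed by neither replicate. The sequences of these 3 peaks are shown because their base content differs from that of the exonic peaks given further on. Each line gives 201 bases centred on the summit, from the plus strand of the RefSeq Release 6 genome (dm6). Capitals mark the strings CAGTG and GAGAGA or their reverse complements CACTG and TCTCTC.

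dpr20 upstream peak, chr3L:857750-857950: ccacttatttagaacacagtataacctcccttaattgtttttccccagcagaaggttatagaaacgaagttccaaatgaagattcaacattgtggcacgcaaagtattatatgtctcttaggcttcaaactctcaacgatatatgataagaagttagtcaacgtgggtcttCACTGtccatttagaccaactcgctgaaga
dpr14 upstream peak, chrX:7908643-7908843: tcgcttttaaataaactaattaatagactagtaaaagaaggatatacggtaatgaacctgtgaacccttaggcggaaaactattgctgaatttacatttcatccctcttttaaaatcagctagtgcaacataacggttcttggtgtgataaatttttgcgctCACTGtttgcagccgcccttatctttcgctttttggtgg
DIP-iota window peak, chr2L:6612627-6612827: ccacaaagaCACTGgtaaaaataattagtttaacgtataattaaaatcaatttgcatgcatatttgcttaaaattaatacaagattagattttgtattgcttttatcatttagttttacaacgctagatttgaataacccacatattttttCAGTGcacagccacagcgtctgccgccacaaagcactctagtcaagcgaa

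The dpr20 gene (FBgn0035170, 3L, 852720 to 857248, minus strand) had 2 conservative peaks. Its product belongs to the Dpr proteins that bind DIP-epsilon and DIP-zeta. The upstream peak, at 857675 to 858024 between genes, had a signal of 115 at an IDR of 0.00165, with 62.7 in replicate 1 and 49.7 in replicate 2. Its summit was 602 bp upstream of the only annotated dpr20 start, which is also the nearest start of any protein-coding gene. This peak was in the own lists of both replicates, at the 99.4 percentile of ranked regions in replicate 1 and the 99.5 percentile in replicate 2. Its right edge lies 30 bp from an annotated copy of the retrotransposon Tirant. The second peak, at 851049 to 851398 with a signal of 88.3, belongs by position to the neighbouring gene Dci, whose start is 122 bp from the summit and on the far side of dpr20. Replicate 1 had 34.0 there and replicate 2 had 55.5, and neither listed it by itself. Another place, in coding exon 2 of dpr20 at 854661 to 855010, was in the second thresholded list alone, with a signal of 61.5, 28.0 in replicate 1 and 36.0 in replicate 2.

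The dpr14 gene (FBgn0029974, X, 7903704 to 7908286, minus strand) and spidey, which encodes a steroid and lipid metabolic enzyme, face away from each other with starts 645 bp apart. A conservative peak of signal 86.3 at 7908568 to 7908917 lay between them, 188 bp from the spidey start and 457 bp from the nearer of 2 dpr14 starts. Replicate 1 had 43.7 there, its 99.0 percentile, and replicate 2 had 45.5, its 99.4 percentile. Replicate 1 listed it as a peak and replicate 2 did not. Binding at one gene and at the other cannot be told apart from this place.

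The DIP-iota gene (FBgn0031837, 2L, 6617134 to 6621700, minus strand) had the highest signal of any member window, 495, yet the peak lay inside another gene. It spans 6612589 to 6612826, with its summit in an intron of CG11050 and 1040 bp from a CG11050 start. From the DIP-iota start the summit is 8973 bp away, and 4407 bp beyond the 3′ end of DIP-iota. The signal was 321 in replicate 1 and 173 in replicate 2, above 99.9% of ranked regions in each, and both replicates listed the peak. Inside DIP-iota itself there was no region in the ranked list of both replicates, and the nearest lay 3087 bp away.

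The conservative peaks inside the genes lay in coding exons or in introns. In coding exons 3 DIP genes had 1 each, DIP-zeta, DIP-theta and DIP-kappa, with signals of 62.0 to 68.6. The peaks of DIP-zeta and DIP-theta cover the start codon, and all 3 had 53.2% to 63.2% GC in the 100 bp either side of the summit. Of the 10 conservative peaks in the windows, 3 had their summit in a coding exon, while over all 1078 conservative peaks on the arms the share was 4.45%. Those 1078 peaks had a median signal of 104, and the share among peaks as weak as these 3 was not read. The peaks of DIP-zeta and DIP-kappa are shown for the contrast with the AT-rich ones above, with the same marks.

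DIP-zeta coding peak, chr2L:9066171-9066371: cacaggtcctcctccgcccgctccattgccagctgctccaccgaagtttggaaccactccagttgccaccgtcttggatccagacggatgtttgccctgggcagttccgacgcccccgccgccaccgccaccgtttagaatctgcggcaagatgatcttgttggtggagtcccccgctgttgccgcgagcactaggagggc
DIP-kappa coding peak, chr2L:13678562-13678762: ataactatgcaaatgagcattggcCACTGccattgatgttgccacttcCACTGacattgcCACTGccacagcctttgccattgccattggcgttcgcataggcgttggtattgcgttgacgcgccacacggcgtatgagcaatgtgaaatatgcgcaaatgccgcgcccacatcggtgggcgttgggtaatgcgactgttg

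DIP-zeta (FBgn0051708, 2L, 9051631 to 9071164, minus strand) encodes a DIP that binds Dpr proteins of the group of dpr13, dpr14, dpr18, dpr19 and dpr20. Its peak at 9066096 to 9066445 had a signal of 68.6 at an IDR of 0.00729, with 30.3 in replicate 1 and 43.8 in replicate 2. The summit lay in exon 2 of 10, 130 bp from the start codon and 4893 bp from the nearest start of DIP-zeta, and only replicate 2 listed the peak by itself. In DIP-theta (FBgn0051646, 2L, 5626291 to 5658560, minus strand), a DIP with Dpr partners among dpr1 to dpr5, the peak at 5651640 to 5651989 lay in exon 2 of 13, 101 bp from the start codon. Its signal was 62.0 at an IDR of 0.0098, 30.8 in replicate 1 and 36.3 in replicate 2. The peak of DIP-kappa (FBgn0051814, 2L, 13676860 to 13717320, minus strand), which encodes the partner of the Dpr protein dpr7, was in its last exon, number 12 of 12, at 13678487 to 13678836. It had a signal of 67.8 at an IDR of 0.00989, 42.2 in replicate 1 and 30.8 in replicate 2. Neither replicate listed the DIP-theta and DIP-kappa peaks by itself, and both stood close to the limit of 0.01.

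The remaining 3 conservative peaks lay in introns of dpr3 and dpr12 and downstream of dpr13. In dpr3 (FBgn0053516, 2L, 2058790 to 2109878, minus strand) the peak at 2084430 to 2084779 was 25273 bp from the nearest dpr3 start, with a signal of 66.3, 32.1 in replicate 1 and 36.7 in replicate 2. In dpr12 (FBgn0085414, 2R, 5804712 to 5860831, plus strand), the partner gene of DIP-delta, the peak at 5843834 to 5844183 was 39297 bp from the nearest dpr12 start. It had a signal of 61.4, 29.8 in replicate 1 and 38.7 in replicate 2. Beyond the 3′ end of dpr13 (FBgn0034286, 2R, 17975122 to 18007902, minus strand) lay a peak at 17973463 to 17973812, 1484 bp outside the gene and between genes. Its signal was 77.4 at an IDR of 0.0042, with 37.9 in replicate 1 and 41.8 in replicate 2. These 3 peaks were in neither replicate's own list, and those of dpr3 and dpr12 were missing from the second thresholded list as well.

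**Figure D1:**
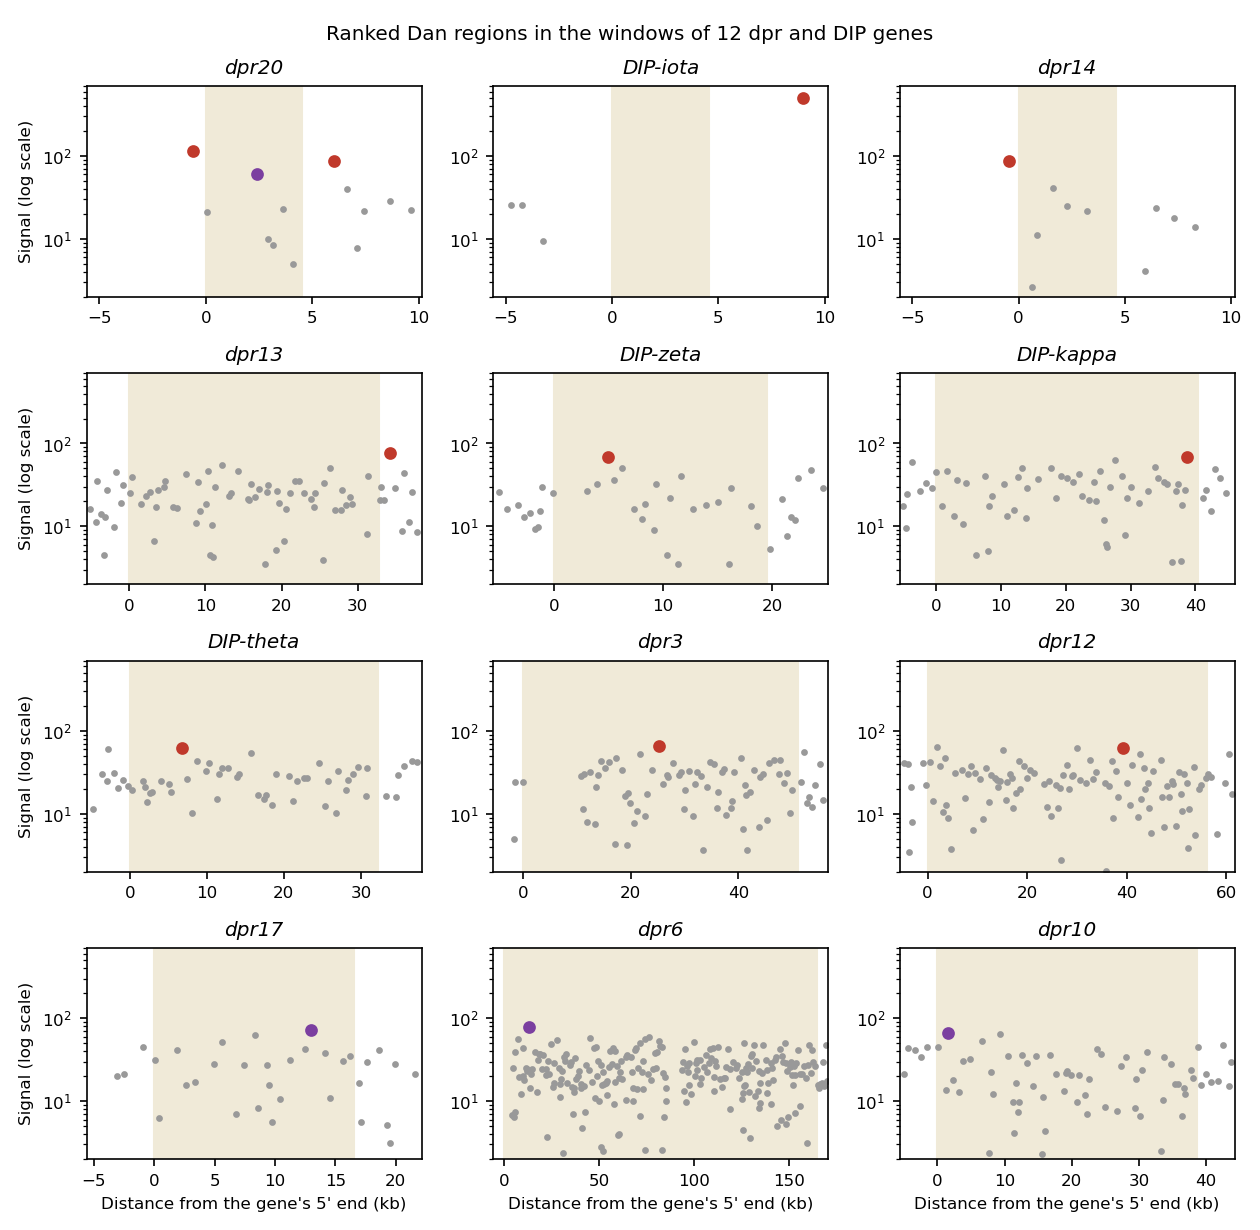
Signal (log scale, no unit stated by the authors) of each ranked region of both replicates against the distance of its summit from the gene's 5′ end in kb, for the 12 members with a peak in either list made from both replicates. Shading marks the gene, red points conservative peaks, purple points peaks of the second thresholded list alone and grey points regions below both; the highest point, 495, lies 8.97 kb from the start of DIP-iota and outside it, and dpr20 has the next highest, 115.

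The second thresholded list had peaks in the windows of 9 members too, beside 16.8% of all genes, and shared 6 of them with the conservative list. Of the 17 members of 20 kb or longer it marked 4, beside 32.7% of genes of that length. It added dpr6, dpr10 and dpr17 and lacked dpr3, dpr12 and DIP-theta. The peak in an intron of dpr6 (FBgn0040823, 3L, 9974651 to 10139360) was at 9987944 to 9988293, with a signal of 79.2, 31.2 in replicate 1 and 27.2 in replicate 2. That of dpr10 (FBgn0052057, 3L, 10147454 to 10186108), in an intron 1537 bp from the nearest dpr10 start at 10184396 to 10184745, had 66.9, with 28.3 in replicate 1 and 28.4 in replicate 2. Both encode ligands of DIP-alpha, and their windows overlap by 1907 bp. In dpr17 (FBgn0051361, 3R, 12094876 to 12111420), of the group that binds DIP-gamma, the peak at 12107678 to 12108027 lay in coding exon 2 of 6, with a signal of 71.6, 46.9 in replicate 1 and 28.2 in replicate 2. In the ranked list of both replicates the IDR was 0.0300 at dpr6, 0.0325 at dpr10 and 0.0144 at dpr17, above the limit of 0.01.

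Read by replicate alone, the members gave fewer calls. Replicate 1's own list had a peak in the windows of 4 members, DIP-iota, dpr20, dpr14 and DIP-alpha, beside 14.2% of all genes. Replicate 2's list had 3, DIP-iota, dpr20 and DIP-zeta, beside 8.94%. Both lists marked DIP-iota and dpr20, and 8% of all genes had a peak of both. Of the 17 long members, replicate 1's list marked 1, DIP-alpha, beside 25.4%, and replicate 2's 0, beside 15.1%. DIP-alpha (FBgn0052791) was listed by replicate 1 alone, for a region of signal 52.1 in an intron at 3546116 to 3546431 on X, where replicate 2 had 12.9, at its 48.0 percentile. The IDR of that region between the replicates was 0.596. Of the 10 conservative peaks in the windows, 6 were in neither replicate's own list, while on all arms 29.2% of 1078 were. The 10 had a median signal of 73.0, and all conservative peaks on the arms 104, and 8 of the 10 lay below 104.

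The other 18 members had no peak in any of the 4 thresholded lists. Of these, 15 had ranked regions in their windows, the strongest with signals of 42.0 to 70.3, of 23.1 to 38.2 in replicate 1 and of 26.1 to 46.8 in replicate 2. Among the members with no peak in a list of both replicates, the strongest regions were those of DIP-delta, DIP-alpha, dpr15, dpr9 and dpr2. DIP-delta, the gene of the dpr12 partner, reached 70.3 in an intron, 1376 bp from its nearest start. The IDR there was 0.325, with 15.4 in replicate 1 and 46.8 in replicate 2, the 99.4 percentile of the latter. Elsewhere in the window replicate 1 reached 23.3, its 90.7 percentile. The strongest region of dpr15, of the DIP-gamma group, had 67.3 in an intron, that of dpr9, of the DIP-beta group, 65.8 in a coding exon, and that of dpr2 65.3 in an intron. The strongest signals in the window of dpr15 were 38.2 in replicate 1 and 36.0 in replicate 2. For dpr9 they were 31.4 and 43.7 in replicates 1 and 2, and for dpr2 they were 28.4 and 36.5. These need not come from the place named first. At that place replicates 1 and 2 had 36.5 and 23.4 in dpr15, 22.0 and 43.7 in dpr9, and 28.0 and 20.7 in dpr2. The strongest regions of both replicates lay far from the gene's own start, 15382 bp in dpr15, 19840 bp in dpr9 and 37556 bp in dpr2.

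Regions of the ranked list, most of them below the thresholds, also lay at the members' own start sites. One overlapped the 500 bp either side of a start in 24 of 31 members, beside 66.2% of all protein-coding genes. The strongest such region per gene had a median signal of 34.9 over the members, against 29.3 over all genes with one. The highest were at dpr20 with 115 and dpr14 with 86.3, described above, and at dpr8, of the DIP-beta group, with 52.7, named after its value was seen. At dpr8 replicate 1 had 26.3 and replicate 2 had 27.6.

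**Figure D2:**
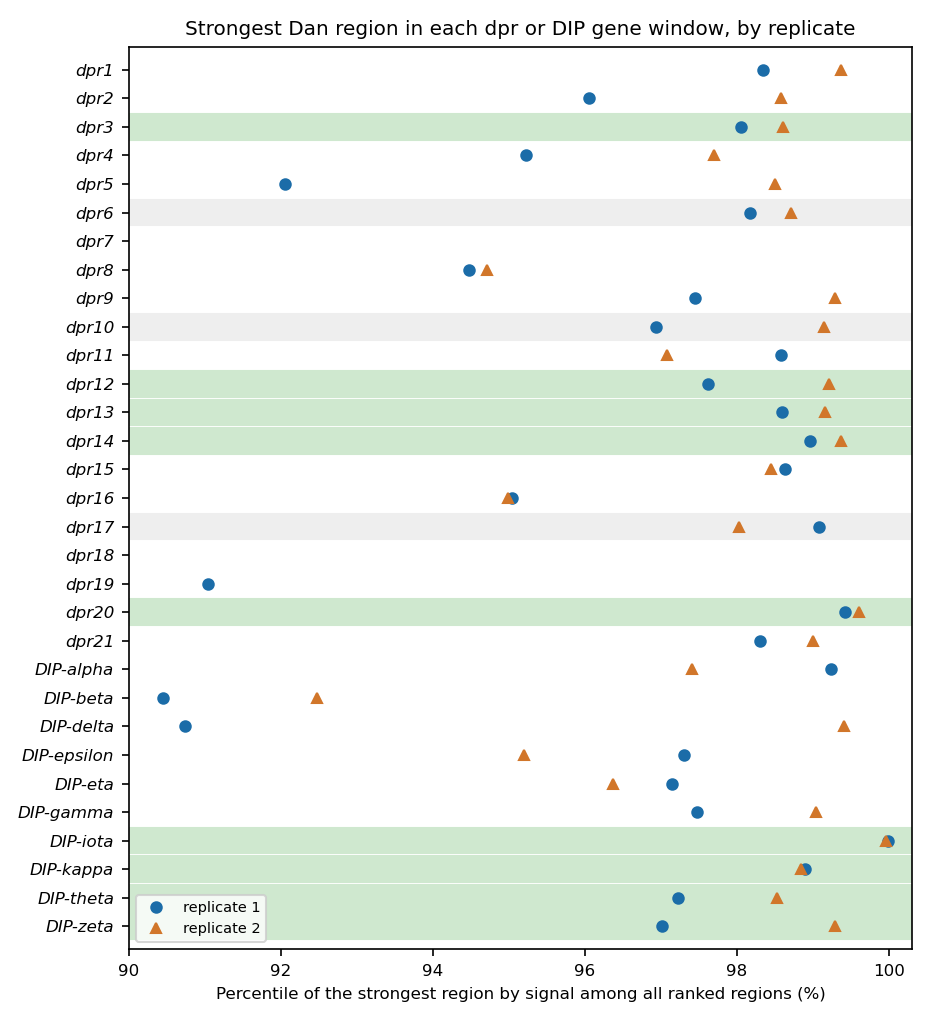
Percentile of the strongest region in each member's window among all ranked regions of the same replicate. Circles mark replicate 1 and triangles replicate 2, each with its own strongest region, and the places can differ. Green rows have a conservative peak and grey rows a peak of the second thresholded list alone; DIP-iota lies above 99.9 in both replicates, DIP-delta spans 90.7 to 99.4, and dpr7 and dpr18 have no point.

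For the 28 members with a region in both replicates, the strongest region of the window was taken in each replicate separately. The places can therefore differ between the replicates. The percentile was higher in replicate 2 for 19 members, and for 23 it was at least 95 in both. DIP-alpha is among the 23, yet the strongest place of replicate 1, at its 99.2 percentile, was at the 48.0 percentile in replicate 2. The median percentile was 97.5 in replicate 1, over 29 members, and 98.7 in replicate 2, over 28. Over the windows of all genes, which are shorter, it was 94.4 and 94.6. For all genes of 20 to 50 kb the medians were 97.6 and 97.7, and for those of 50 kb or longer 98.4 and 98.7. Spearman's rho between the replicates' strongest signals, also taken separately, was 0.38 over the 28 members. It was 0.29 over the 23 without a peak in either replicate's own list. Pearson's r on the log10 scale was 0.84 over the 28 and 0.24 over the 23. These values are descriptions over members that share a library within each replicate and differ in length, and the higher r rests on members with listed peaks, DIP-iota among them.

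Among groups of proteins known to bind each other, conservative peaks were spread over several groups. In the group of DIP-epsilon and DIP-zeta with dpr13, dpr14, dpr18, dpr19 and dpr20, the windows of 4 of 7 genes had a conservative peak, beside 14.8% of all genes. In the group of DIP-eta, DIP-theta and DIP-iota with dpr1 to dpr5, 3 of 8 had one. DIP-delta and dpr12 had 1 of 2, and DIP-kappa and dpr7 also 1 of 2. The groups of DIP-alpha with dpr6 and dpr10, of DIP-beta with dpr6, dpr8, dpr9, dpr10 and dpr21, and of DIP-gamma with dpr11, dpr15, dpr16 and dpr17 had a conservative peak in 0 of 3, 0 of 6 and 0 of 5 genes. With the second thresholded list, beside 16.8% of all genes, the count was 4 in the group of DIP-epsilon and DIP-zeta and 1 in that of DIP-eta, DIP-theta and DIP-iota. It was 0 for DIP-delta and dpr12 and 1 for DIP-kappa and dpr7, and 2 in the DIP-alpha group, 2 in the DIP-beta group and 1 in the DIP-gamma group. The counts include conservative peaks that lie outside the named gene, those of DIP-iota, dpr13, dpr14 and dpr20. By the nearest start site only dpr20, DIP-theta and DIP-zeta had a conservative peak. The shares of all genes are not matched for length, and for the conservative list it is 28.5% among genes of 20 kb or longer. The groups share members, follow background knowledge of binding and were not tested against each other.

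The windows of the long members held more ranked regions per length, most of them below the thresholds, than those of most other long genes. In the windows of all members 96.1% of the ranked regions had an IDR above 0.1. Over all 31 members the median was 13.2 ranked regions per 10 kb, against 11.1 over all protein-coding genes. For the 17 members of 20 kb or longer it was 13.9, against 10.3 over all 1020 genes of that length. Of the 17, 16 lay above that median of all long genes and 13 above their upper quartile, 13.1. The highest density was 18.2 at dpr13, followed by 16.6 at dpr12 and 16.5 at dpr1 (named after their values were seen). At dpr2, with 8.75, it was below the median. Stretches with no region were short as well. The longest such stretch in the window had a median of 3.40 kb over these 17 members and 9.71 kb over all genes of that length. It reached 8 kb in 3 of 17, at dpr3, dpr6 and dpr2, and in 55.7% of all such genes. The median signal of the regions was 21.7 in the windows and 20.4 on all arms. Of the 1980 ranked regions in the windows, 71.9% had their summit in an intron, against 36.5% of 10000 drawn from the arms. In a coding exon it was 8.69% against 21.5%. The drawn regions cover the whole arms, short genes and the space between genes included. The shares in the windows of other long genes were not read.

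**Figure D3:**
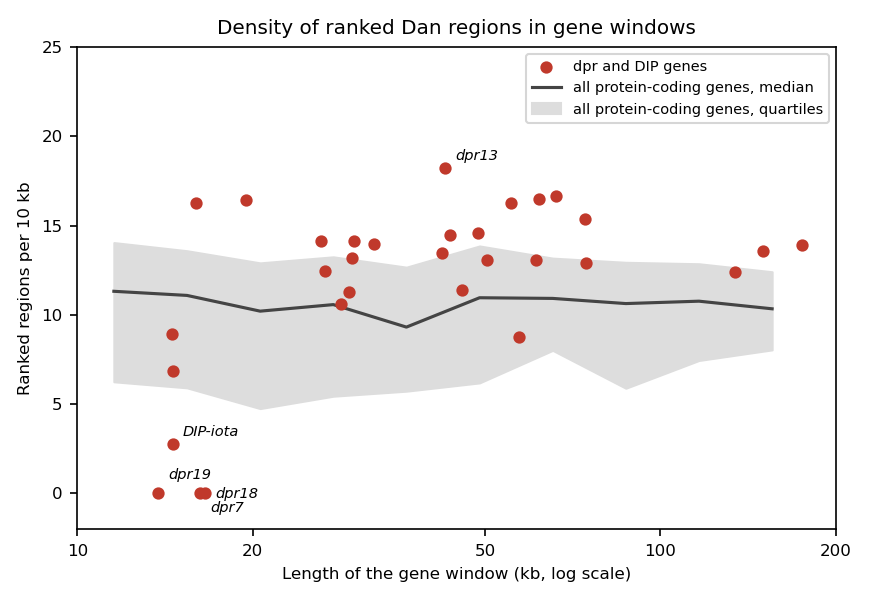
Ranked regions per 10 kb against the length of the gene window in kb (log scale), with a red point per member and, for all protein-coding genes, the median as a line and the quartiles as a grey band. The members with long windows lie at or above the upper quartile in most cases, up to 18.2 at dpr13, and dpr7, dpr18 and dpr19 lie at 0.

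The density also showed when the IDR limit was relaxed. At an IDR of at most 0.05, regions lay in the windows of 21 of 31 members, beside 26.1% of all genes. Among those of 20 kb or longer they lay in 15 of 17, beside 55% of all genes of that length. Regions can overlap, and merged into places they numbered 43 in the member windows, 28.5 per Mb. Counted without merging there were 31.9 regions per Mb in the member windows, against 18.9 on the arms. In the windows of long members there were 28.0 places per Mb, and in those of all genes of 20 kb or longer 16.3 per Mb. At the limit of 0.01 the windows of long members had 4.12 places per Mb, from only 5 places, against 6.34 in those of all long genes. So few places do not settle the order at this limit. The members with the most places at 0.05, named after their values were seen, were dpr12 with 5, and dpr1 and dpr6 with 4 each. The region nearest to the limit on its far side was in dpr6, at an IDR of 0.0108 and a signal of 56.6, and the next in dpr3, at 0.0110 and 52.9. The members just inside it were DIP-kappa and DIP-theta. No test was made of these differences.

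**Figure D4:**
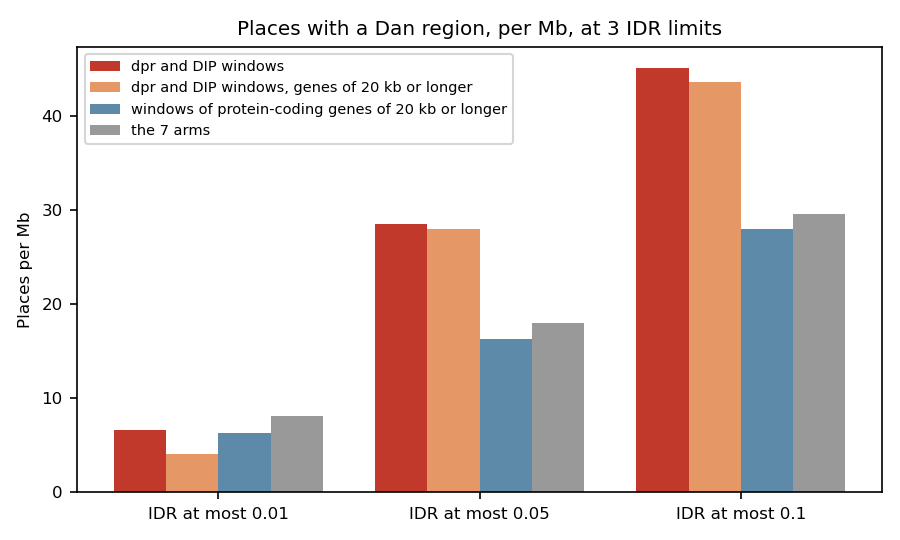
Bars give places with a ranked region per Mb, overlapping regions counted once, at IDR limits of 0.01, 0.05 and 0.1, for the member windows, the windows of members of 20 kb or longer, those of all protein-coding genes of that length, and the 7 arms. The long members lie at 4.12, from only 5 places, below the other bars, at 0.01, and at 28.0 against 16.3 for all long genes at 0.05.

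The 3 short members dpr7, dpr18 and dpr19 had no region in the ranked list of both replicates, beside 9.83% of all genes and 10.3% of those under 20 kb. In replicate 1 alone 2 members had none, dpr7 and dpr18, beside 6.64% of all genes, and in replicate 2 all 3, beside 8.65%. The dpr7 gene (FBgn0053481) lies on chromosome 4, where 96.2% of 80 genes had none. Neither replicate ranked a region in its window. The window of dpr18 (FBgn0030723, X, 16063738 to 16070304) held none in either replicate, and the nearest was 15588 bp from the gene, while 8.52% of genes on X had none. The window of dpr19 (FBgn0032233, 2L, 10376168 to 10379905) held 4 regions in replicate 1, the strongest with 23.5, and 0 in replicate 2. On 2L 16.3% of genes had none. An empty window means that the peak caller ranked nothing there, and no read depth is at hand to tell a low signal from a lack of reads.

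Signal and base content differed together among the 10 peaks in the windows. Their GC content, read 100 bp either side of the summit, averaged 47.7% (SD 10.9, 10 peaks), against 39.4% (SD 9.64) over the 1078 on the arms. The 4 peaks that a replicate also listed had a median of 37.8%, although DIP-zeta, one of them, had 63.2%. The 6 listed by neither had a median of 52.5%, and on all arms the medians were 35.8% and 47.3%. DIP-iota had 32.3%, dpr14 37.3% and dpr20 38.3%, whereas DIP-theta had 61.2%. The part of base content in these calls was not tested.

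**Figure D5:**
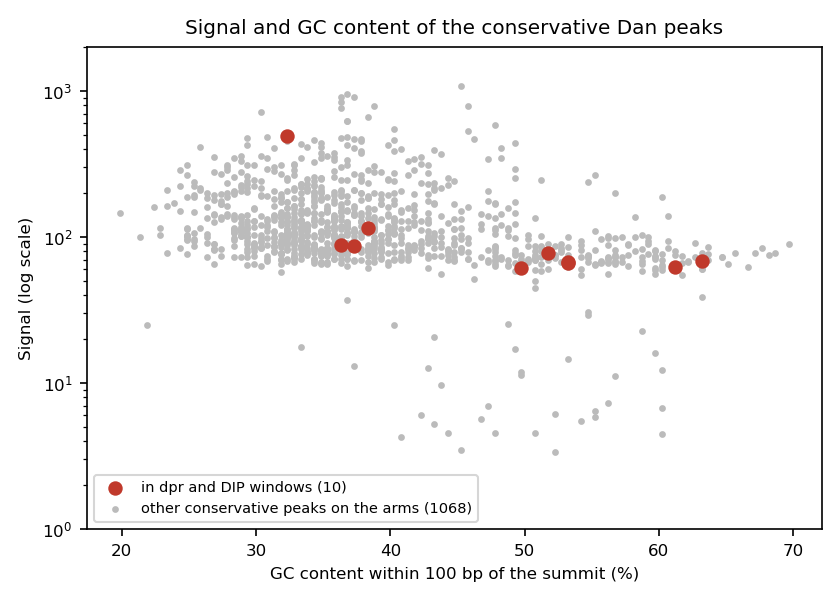
Signal (log scale) of each conservative peak on the arms against GC content within 100 bp of its summit in percent, with the 10 peaks in member windows in red and the others in grey. Of the red points, 4 lie under 40% GC with signals from 86.3 to 495, and the other 6 at 49.8% or more with signals of 61.4 to 77.4.

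The string CAGTG, counted on both strands, was present within 100 bp of the summit in 8 of the 10 peaks in the windows. Over all conservative peaks on the arms 54.0% held it, and of 10000 ranked regions drawn from the arms 36.3% did. In the sequences shown it stands in dpr20, dpr14 and DIP-iota and 3 times in DIP-kappa, and DIP-zeta has none. The string GAGAGA was in 1 of the 10, DIP-theta, and in 11.3% of all conservative peaks. CAGGTAG, the site of the early activator Zelda, was in 0 of the 10 and in 1.30% of all conservative peaks, and CACNTG in 0 of the 10 and in 24.6%. All strings were sought on both strands. CAGTG cannot overlap CACNTG and can share at most 1 base with GAGAGA.

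Genes listed for other recognition, guidance, adhesion and synaptic roles were read in the same way for comparison. Of 22 genes of the beat and side families, whose proteins also bind in pairs, the windows of 3 had a conservative peak, beat-Ib with a signal of 113, side-III with 68.6 and beat-Vc with 62.3. Axon guidance genes had 8 of 20, led by Drl-2 with 175, fra, the Netrin receptor gene, with 173 and Sema5c with 149. Genes listed here under adhesion had 6 of 29, led by kirre with 210, ImpL2 with 201 and tutl with 128. Genes of leucine-rich repeat receptors had 1 of 13, haf with 79.2. Synaptic genes had 2 of 10, Syx1A with 264 and Nlg4 with 68.5. All these counts stand beside the same 14.8% of all protein-coding genes, and their median gene lengths run from 7.21 to 43.8 kb. That share is not matched for length, and among genes of 20 kb or longer it is 28.5%. The median length is 41.2 kb for beat and side, 26.1 kb for guidance, 43.8 kb for adhesion and 37.2 kb for synaptic genes. A peak in a window need not belong to the named gene. Another gene's start was nearest to the peaks given for Drl-2, fra, Sema5c, beat-Ib, haf and Syx1A. Those of haf and Syx1A lay within 500 bp of the starts of CG14352 and CG18428. For kirre, ImpL2 and tutl the nearest start was the gene's own. Peaks per Mb of window were 2.59 for beat and side, 10.6 for guidance, 3.90 for adhesion, 2.16 for leucine-rich repeat and 4.31 for synaptic genes. The dpr and DIP windows, with 6.64, lie between them. The median density of ranked regions per 10 kb, 13.2 over the members, was 12.9 for the beat and side genes and also 12.9 for synaptic genes, close to that of the members. It was 11.7 for leucine-rich repeat, 10.2 for adhesion and 7.97 for guidance genes.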

How the data were processed

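The data are ChIP-seq region lists on dm6, per the labels, from 2 biological replicates of whole embryos whose chromatin was sonicated to 200 to 800 bp. The signal per region is the value the authors deposited, made from filtered ChIP and control alignments according to notes deposited with the samples. Its scale is not stated. The score the authors deposited is the IDR on a scaled log axis, capped at 1000, and the deposited −log10 values are of a q-value and of the IDR. Which aligner and peak caller were used is not given in the sources used here. The ranked lists made from both replicates hold 4 signal columns of single inputs that name no sample, and these were not used.

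Genes came from Ensembl release 115 (BDGP6.54) and sequence from the matching RefSeq Release 6 assembly, whose arms have the dm6 lengths. A peak was counted for each gene whose window of 5000 bp on either side it overlapped by at least 1 bp. Summits were classed by the nearest start site (promoter within 500 bp), then coding exon, other exon, intron or between genes, and sequence was read 100 bp either side. Backgrounds are the same counts over all protein-coding genes, also in classes of length. No test was made, since there is 1 group and members are not replicates.

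Every member is accounted for, and those with a peak in a list made from both replicates are described in full. Of the rest, the 5 with the strongest regions are named, as are the 3 strongest of each comparison list. The members and lists were chosen with earlier results of these data known. The functions for windows were tested on simulated data. Computation ran in Python 3.11.15 with pandas 2.3.3, numpy 2.4.6, matplotlib 3.10.9 and scipy 1.17.1. One listed synaptic symbol matched no gene.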

Additional observations from a re-analysis of the deposited data

How the results depend on the processing

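The number of members with a conservative peak, 9, stayed within 1.5 times with windows of 1000 or 10000 bp, with summits in place of overlaps and with the second thresholded list. It was 5 with the gene body only, 1 at an IDR of at most 0.001 and 21 at an IDR of at most 0.05, and with single replicates it ran from 3 to 4. By the nearest start site, 3 members had a conservative peak. The number of peaks, 10, was 5 with the gene body only, 1 at 0.001 and 48 at 0.05, and 3 to 4 with single replicates. Peaks per Mb, 6.64, were 4.17 with the gene body only, 5.54 with 1000 bp, 6.12 with 10000 bp, 7.30 with the second thresholded list, 0.664 at 0.001 and 31.9 at 0.05, and 1.99 to 2.65 with single replicates. Members with a summit at their own start numbered 1 within 500 bp, 0 within 200 bp and 2 within 1000 bp, where dpr20 joined dpr14. They numbered 0 at 0.001, 2 at 0.05 and 0 to 1 with single replicates. The cause of these moves was not tested, except that wider windows and looser limits admit more regions by construction. The median percentiles of the strongest regions were the same to 3 digits when ranked by −log10 q. No paired analysis was possible because there is 1 group. Read depth, which limits how weak a region can be called, is unknown.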
